A study of Mus musculus with 12 samples.

Results

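The mRNAs of many cytokines are short-lived because RNA-binding proteins and ribonucleases mark or cut them for decay. The 8 genes described here encode such factors, and 1 protein that opposes them. They are Zfp36, Zfp36l1 and Zfp36l2 (the tristetraprolin family), Zc3h12a and Zc3h12c (Regnase-1 and Regnase-3), Rc3h1 and Rc3h2 (Roquin-1 and Roquin-2), and Elavl1 (HuR). They were chosen by function, with earlier results of these data known, and matched by mouse symbol to the Ensembl identifiers of the deposited table, which lists 54532 genes. Of those, 11335 reached 1 FPKM (fragments per kilobase of gene, scaled per library) in at least 3 libraries and were tested, all 8 of these genes among them. RNA was sequenced from cultured cells of wild-type mice in 4 groups of 3 libraries. Marrow cells were expanded with CMG, a source of M-CSF, and gave the macrophages. Osteoclasts, the cells that resorb bone, also received RANKL, at 100 ng/mL in the sample source. One group of each cell type was left without lipopolysaccharide (LPS, from the outer membrane of bacteria), and the other received it at 100 ng/mL for 3 h on day 5. No label says whether the libraries of a group came from separate animals or cultures, so p-values measure only the spread between these libraries.

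As background, tristetraprolin family proteins share a pair of CCCH zinc fingers that bind AU-rich elements in the 3′ untranslated region (3′ UTR) of mRNAs such as Tnf. They recruit the CCR4-NOT complex, which shortens the poly(A) tail, after which the mRNA is decapped or degraded by the exosome. Regnases are endoribonucleases that cut stem-loops in mRNAs such as Il6 and Il12b, and Roquins bind stem-loops and also recruit CCR4-NOT. HuR binds U-rich and AU-rich elements and mostly stabilises its targets. LPS signalling both induces several of these genes and alters their proteins, through phosphorylation of tristetraprolin by the p38 target kinase MK2 and cleavage of Regnases and Roquins by the protease MALT1. RNA levels do not show those protein changes.

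Most of the 8 mRNAs hold the element that the tristetraprolin family binds. The core nonamer TTATTTATT, written as DNA, was searched on the transcript strand in the 3′ UTR of a single coding transcript per gene. Transcripts came from GENCODE M21 on build GRCm38. The one with the best APPRIS tag, which ranks the isoforms of a gene, was taken, and the longest among ties. Other isoforms were not searched. The nonamer was present in 6 of the 8 genes, in 7 of 18 known target transcripts of these factors, and in 7.48% of the 10211 tested genes with a 3′ UTR. These counts were not adjusted for length, and a longer 3′ UTR has more room for a match. The 3′ UTRs of the 8 had 774 to 7181 bases, against a median of 1016 over those tested genes. The first match in each of the 6 is shown with its neighbouring bases, 5′ to 3′, with the nonamer in capitals.
Zfp36 (chr7:28376951-28376979, minus strand): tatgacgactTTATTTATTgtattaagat
Zfp36l1 (chr12:80108167-80108195, minus strand): aactgttggaTTATTTATTttagaaattc
Zfp36l2 (chr17:84184914-84184942, minus strand): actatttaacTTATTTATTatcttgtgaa
Rc3h1 (chr1:160970043-160970071, plus strand): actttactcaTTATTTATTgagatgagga
Rc3h2 (chr2:37373287-37373315, minus strand): caaagacattTTATTTATTttactctgta
Elavl1 (chr8:4285788-4285816, minus strand): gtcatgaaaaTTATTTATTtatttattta

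All 3 tristetraprolin family members, both Roquins and HuR carried the nonamer, and Zc3h12a and Zc3h12c did not. Elavl1 held 8 matches, some of which overlap, and the others 1 each. The shorter pentamer ATTTA, which lies inside each nonamer, occurred 3 times in the 774-base 3′ UTR of Zfp36, 9 times in Zfp36l1, 5 times in Zfp36l2, 3 times in Zc3h12a, 14 times in Zc3h12c, 20 times in Rc3h1, 25 times in Rc3h2 and 17 times in Elavl1. That is 2.74 to 4.91 pentamers per kb, against a median of 1.31 per kb over the tested genes. A match is a description of the sequence and not a site shown to be bound.

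Zfp36 and Zc3h12a had the largest rises with LPS in macrophages, and their promoters are shown for that reason (RefSeq, GRCm38.p6, 300 bases each around the gene start, of which most lie before it). The 6 motifs searched were taken, each on both strands except TATA, as the NF-κB motif, AP-1 (TGANTCA), CRE (TGACGTCA), the CArG box of SRF, GAS of STAT factors (TTCNNNGAA), and the TATA box of core promoters (on the gene's strand only, as TATAAA). Capitals mark matches. The Zfp36 window lies around the RefSeq start and wholly inside the GENCODE gene given below, whose outermost start is further upstream and was not searched.
Zfp36 (chr7:28379179-28379478, minus strand): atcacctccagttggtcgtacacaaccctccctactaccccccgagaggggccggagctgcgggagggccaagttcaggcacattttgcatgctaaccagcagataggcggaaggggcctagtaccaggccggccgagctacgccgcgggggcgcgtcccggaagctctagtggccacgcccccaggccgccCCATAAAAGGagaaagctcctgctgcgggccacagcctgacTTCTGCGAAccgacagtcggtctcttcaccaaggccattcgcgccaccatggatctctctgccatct
Zc3h12a (chr4:125127832-125128131, minus strand): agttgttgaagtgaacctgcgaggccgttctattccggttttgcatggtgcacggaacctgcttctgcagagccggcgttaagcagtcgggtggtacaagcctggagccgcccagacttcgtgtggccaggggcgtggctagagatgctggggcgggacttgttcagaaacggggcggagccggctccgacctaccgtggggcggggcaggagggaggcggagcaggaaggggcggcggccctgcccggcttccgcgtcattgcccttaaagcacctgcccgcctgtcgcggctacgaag

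The Zfp36 window held a CArG box starting at −58 and a GAS match starting at −17 from the RefSeq start, with no overlap between them. The Zc3h12a window held none of the 6 motifs, which says only that these letters are not in this window. Of 32817 promoters of the same length, 1.63% held a CArG box, 8.29% GAS, 4.5% the NF-κB motif, 7.81% AP-1, 1.79% CRE and 8.32% TATA. Among the 7 members with a promoter in the reference table (all but Zfp36l2), Rc3h1 held an AP-1 match at −133, and Zfp36l1 held AP-1 at −129 and TATA at −29. No other match was found in the windows of Zc3h12c, Rc3h2 and Elavl1.

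The libraries held 15652005 to 20281769 assigned reads, and each value of a member rested on 99 to 16075 reads. Defining genes matched the cell type labels: 10 osteoclast markers summed to 16.3 to 28.98 FPKM in the 6 macrophage libraries and to 29220 to 32220 in the 6 osteoclast libraries. The sum of 8 macrophage markers was 2040 to 2511 FPKM in macrophages and 1702 to 1804 in osteoclasts, where Csf1r and Cd68 made up most of it. Markers of stromal cells summed to 25.5 to 35.9 FPKM in macrophages, mostly Col1a1 and Col1a2, and to at most 0.987 in osteoclasts. Some markers of other cells moved with LPS in macrophages, alongside the genes described below. Dendritic cell markers summed to 0.273 to 0.293 FPKM without LPS and 5.26 to 6.02 with it, mostly Xcr1, and neutrophil lineage markers to 5.41 to 7.66 and 6.75 to 16.0. In osteoclasts the dendritic markers summed to 0.638 to 0.710 FPKM without LPS and 1.28 to 1.71 with it, and the neutrophil markers to at most 1.88. Lymphoid markers summed to at most 1.14 FPKM in any library. The part of these other cells in the results below was not tested. The deposited values appear to be scaled by size factors, so that a change is measured against the bulk of genes, not against total RNA.

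LPS changed all 8 genes in macrophages. In all, 6 rose, 2 of the 3 tristetraprolin family members fell, and the rises ranged from 1.598-fold for Elavl1 to 14.8-fold for Zfp36. With every library rescaled to the same sum (TPM), Elavl1 lost its call. In osteoclasts 6 of the 8 changed, 5 up and 1 down (4 up under TPM and with limma's voom on recovered reads, without Zfp36l1), and the largest rise was the 5.85-fold rise of Zc3h12a. Limma on log2(FPKM + 1), with adjusted p under 0.05 over all tested genes, called 69.9% of all genes in macrophages and 17.7% in osteoclasts, so a call alone is common in macrophages. Of the genes called, 52.6% were higher with LPS in macrophages and 62.8% in osteoclasts; under TPM these shares were 18.5% and 43.5%, and with quantile normalization 37.0% and 38.5%. In macrophages 36.8% of all genes were called higher and 33.1% lower, and in osteoclasts 11.1% and 6.59%. Changes of at least 1 on the log2 scale were called in 18.4% of all genes in macrophages and in 6 of the 8 (all but Rc3h2 and Elavl1; 5 without Rc3h1 under TPM and quantile normalization), and in 2.30% of all genes in osteoclasts and in 2 of the 8 (Zc3h12a and Zc3h12c). The libraries with and without LPS did not overlap for any of the 8 in macrophages and for 7 of the 8 in osteoclasts, which held for 74.0% and 34.0% of all tested genes. Under TPM the LPS effects in macrophages moved by over 1.5 times for Rc3h1 (0.67, from 1.22), Rc3h2 (0.30, from 0.78) and Zfp36l1 (−1.87, from −1.18), each with its call and direction kept, and for Elavl1 (0.03, from 0.60), which lost its call. The median log2 difference of the 8 was 1.00 in macrophages and 0.32 in osteoclasts, against 0.02 and 0.01 over all tested genes.

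**Figure D1:**
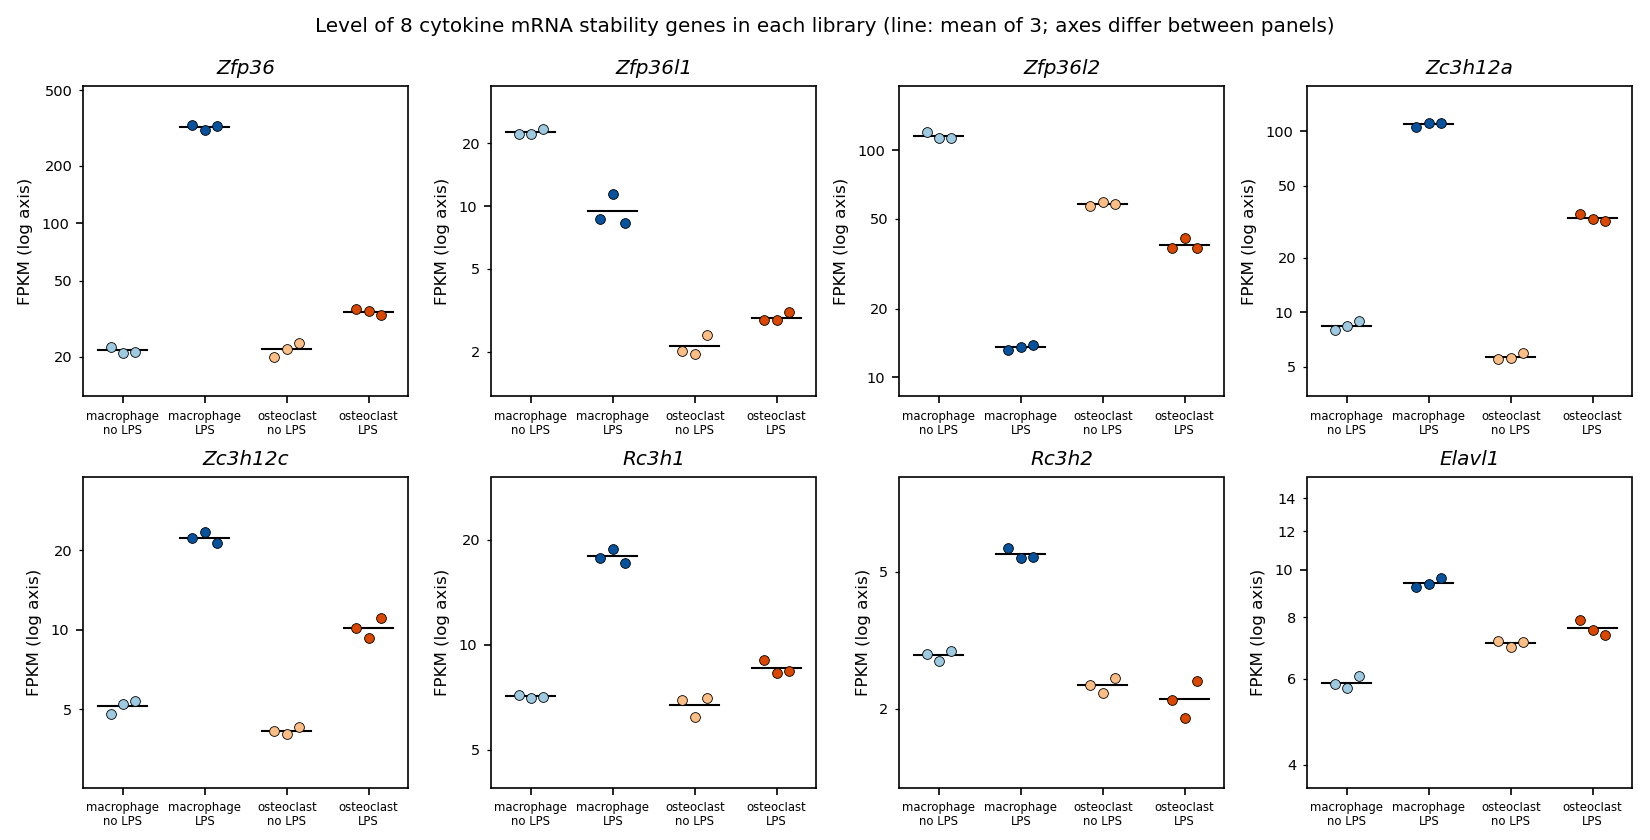
FPKM of each gene in each of the 12 libraries, on log axes that differ between panels; points are libraries and lines are means of 3. Zfp36 and Zc3h12a stand far above their other groups in LPS-treated macrophages, at 310.4 to 328 and 105 to 111 FPKM, and Zfp36l2 is lowest there, at 13.1 to 13.9 FPKM.

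Zfp36 encodes tristetraprolin itself, the best studied of the 3 proteins and a regulator of Tnf mRNA. The gene (Ensembl ENSMUSG00000044786) lies at chr7:28376784-28380253 on the minus strand (GENCODE M21, GRCm38, here and for the genes below). It measured 22.5, 21.04 and 21.3 FPKM in untreated macrophages and 328, 310.4 and 323 FPKM after LPS. In untreated osteoclasts it measured 19.8, 21.95 and 23.8 FPKM, and after LPS 35.6, 34.7 and 33.3 FPKM. The untreated groups overlapped, while each LPS group lay wholly above its untreated group. LPS raised Zfp36 14.8-fold in macrophages (log2 difference 3.83 ± 0.06 SE, adjusted p = 1.30e-13) and 1.58-fold in osteoclasts (0.64 ± 0.06, adjusted p = 8.70e-06). The test of the difference between these LPS effects, the interaction, gave −3.19 ± 0.08 on the log2 scale (adjusted p = 5.04e-11). Without LPS the cell types differed by 0.01 (adjusted p = 0.847), and with LPS osteoclasts held 10.8% of the macrophage level. Gm44710, an antisense gene that shares exon sequence with Zfp36, reached at most 3.41 FPKM in any library. The antisense partners of Zfp36l1 (Gm26669) and Elavl1 (Ccl25) reached at most 0.191 and 1.03 FPKM, and that of Zc3h12c (Mir6244) was at 0. The antisense partner of Zfp36l2, AC132455.1, was not analysed here, so its share in the Zfp36l2 reads is unknown.

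Zfp36l2, a paralogue best known for roles in oocytes and blood cell formation, went the other way. It (ENSMUSG00000045817) lies at chr17:84183931-84187947 on the minus strand. Its FPKM values were 120.3, 114 and 113 in untreated macrophages and 13.1, 13.5 and 13.9 with LPS. In osteoclasts they were 57.0, 59.4 and 58.0 without LPS and 37.0, 40.9 and 37.1 with it. All 4 groups were separate from each other. LPS lowered Zfp36l2 8.57-fold in macrophages (log2 difference −3.01 ± 0.05, adjusted p = 1.30e-13) and 1.52-fold in osteoclasts (−0.59 ± 0.05, adjusted p = 2.17e-06), with an interaction of 2.42 ± 0.06 (adjusted p = 6.52e-11). Osteoclasts thus held 50.2% of the macrophage level without LPS and 284% with it, and Zfp36l2 was the only one of the 8 that was higher in osteoclasts than in macrophages after LPS.

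Zfp36l1, the third paralogue, was mainly a macrophage transcript here. It (ENSMUSG00000021127) lies at chr12:80107754-80113013 on the minus strand. Its FPKM values were 22.2, 22.3 and 23.6 in untreated macrophages, and 8.73, 11.5 and 8.35 after LPS. Untreated osteoclasts held 2.03, 1.96 and 2.40 FPKM, and LPS-treated osteoclasts 2.84, 2.84 and 3.10. LPS lowered Zfp36l1 2.38-fold in macrophages (log2 difference −1.18, adjusted p = 3.06e-07). The level in untreated osteoclasts was 10.6-fold below that in untreated macrophages (−2.92, adjusted p = 4.45e-11), the largest difference between the untreated cell types among the 8. In osteoclasts the rise with LPS was 1.37-fold and near the threshold (0.33 ± 0.10, adjusted p = 0.0359). That call was lost with no filter (adjusted p = 0.0953), with rescaling to TPM (0.0592), with limma's voom on recovered reads (0.0647), with the replicate number as a block (0.0515), and without any 1 of untreated macrophage libraries 1 and 2, untreated osteoclast libraries 1 and 2 and each LPS-treated osteoclast library (up to 0.114). The LPS effects differed between the cell types by 1.51 ± 0.14 (adjusted p = 1.57e-06), a difference that kept its direction and its call under every alternative run.

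Because FPKM is per length, the 3 paralogues can be set beside each other within a library, where the scaling of libraries cancels. Zfp36l2 made up most of the family's summed FPKM in both untreated cell types, at 72.3% ± 0.685 (SD, n = 3) in macrophages and 70.8% ± 1.72 in osteoclasts. After LPS it held 3.94% ± 0.157 in macrophages and 50.5% ± 1.54 in osteoclasts. Zfp36 moved the other way, from 13.5% ± 0.125 to 93.3% ± 0.653 in macrophages and from 26.6% ± 1.55 to 45.6% ± 1.496 in osteoclasts. LPS-treated macrophages thus held mostly Zfp36, and in LPS-treated osteoclasts Zfp36l2 still had the larger share in each of the 3 libraries. The margin was smallest in library 1, at 49.0% for Zfp36l2 and 47.2% for Zfp36. The part of antisense AC132455.1 in the Zfp36l2 reads is unknown, so that order is not secure. The share of Zfp36 separated the groups in all 4 comparisons of 2 groups. The exact two-sided permutation test gave p = 0.1 for each, the smallest value that 3 against 3 libraries allow (0.1 also after adjustment over the 12 share tests). The summed FPKM of the family rose in macrophages from 160.1 ± 4.26 to 343 ± 7.34, and was 82.1 ± 2.87 and 75.8 ± 2.53 in osteoclasts without and with LPS. The size of that rise depends on the scaling, being 2.15-fold on FPKM and 1.37-fold on TPM.

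**Figure D2:**
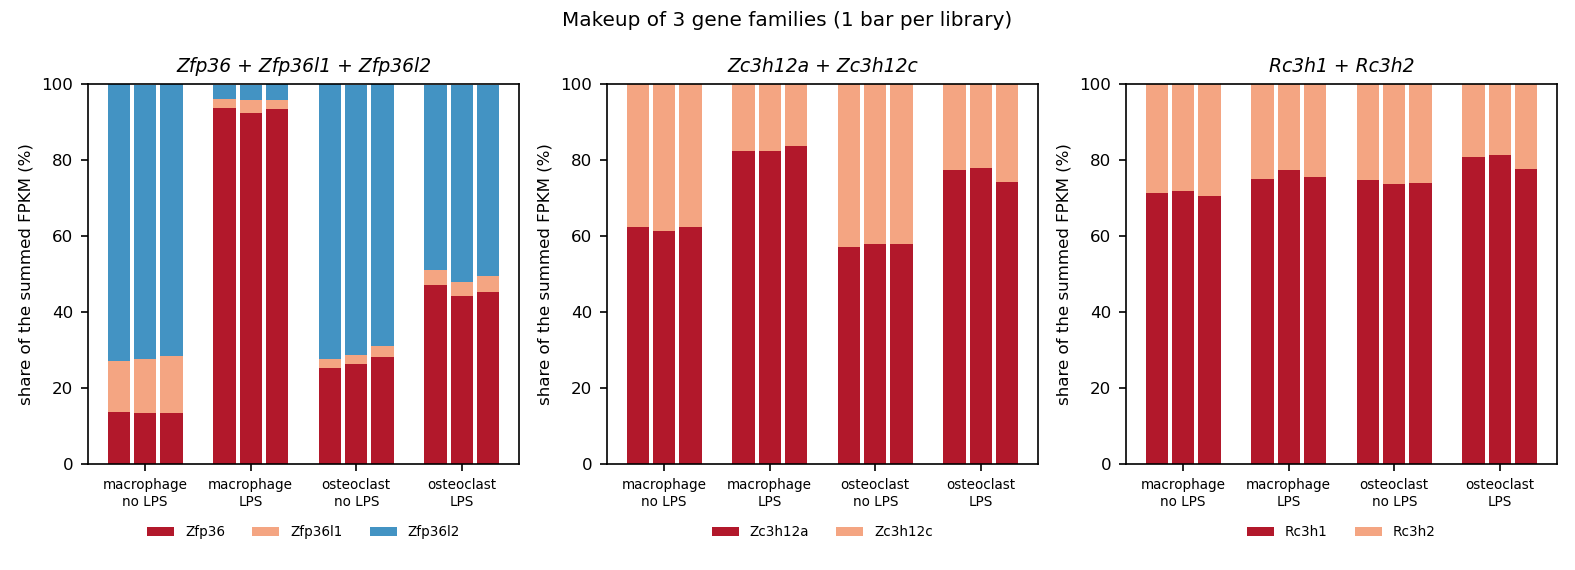
Share in percent of each paralogue in the summed FPKM of its family, 1 bar per library and 3 libraries per group. Zfp36 goes from 13.5% to 93.3% of its family with LPS in macrophages and from 26.6% to 45.6% in osteoclasts, while the Regnase and Roquin pairs keep Zc3h12a and Rc3h1 as the larger part in every library.

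Zc3h12a encodes Regnase-1, an endoribonuclease that cuts stem-loops in the 3′ UTR of inflammatory mRNAs. It (ENSMUSG00000042677) lies at chr4:125118423-125127840 on the minus strand, with no exon shared with another gene. It measured 7.95, 8.37 and 8.90 FPKM in untreated macrophages and 105, 111 and 110.5 FPKM after LPS. Osteoclasts held 5.49, 5.61 and 5.94 FPKM without LPS and 35.0, 32.6 and 31.9 FPKM with it. No pair of groups overlapped. LPS raised Zc3h12a 12.9-fold in macrophages (log2 difference 3.55 ± 0.05, adjusted p = 1.08e-13) and 5.85-fold in osteoclasts (2.36 ± 0.05, adjusted p = 1.79e-10). Its rise was smaller in osteoclasts by 1.19 ± 0.07 on the log2 scale (interaction −1.19, adjusted p = 4.62e-08).

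Zc3h12c encodes Regnase-3, a related nuclease described in macrophages. It (ENSMUSG00000035164) lies at chr9:52111344-52168572 on the minus strand. Its FPKM values in macrophages were 4.80, 5.26 and 5.37 without LPS and 22.2, 23.5 and 21.2 with it, a 4.34-fold rise (log2 difference 1.92 ± 0.06, adjusted p = 7.23e-11). In osteoclasts they were 4.13, 4.05 and 4.30 without LPS and 10.2, 9.27 and 11.1 with it, a 2.45-fold rise (1.11 ± 0.06, adjusted p = 1.63e-07). The interaction was −0.81 ± 0.09 (adjusted p = 1.01e-05). The 2 Regnase genes were the only ones of the 8 to rise by at least 1 on the log2 scale in both cell types. Regnase-1 held 62.1%, 83.0%, 57.7% and 76.5% of the pair's summed FPKM in untreated and LPS-treated macrophages and untreated and LPS-treated osteoclasts. The pair summed to 13.5 ± 0.762, 131 ± 3.71, 9.84 ± 0.348 and 43.4 ± 1.68 FPKM in the same order.

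Rc3h1 and Rc3h2 encode Roquin-1 and Roquin-2, which bind stem-loops in mRNAs such as Tnf and Icos. Rc3h1 (ENSMUSG00000040423) lies at chr1:160906418-160974978 on the plus strand. Rc3h1 measured 7.18, 7.06 and 7.08 FPKM in untreated macrophages and 17.7, 18.9 and 17.2 FPKM after LPS, a 2.52-fold rise (log2 difference 1.22 ± 0.05, adjusted p = 8.56e-10). In osteoclasts it measured 6.94, 6.21 and 7.02 FPKM and, after LPS, 9.01, 8.32 and 8.39 FPKM, a 1.27-fold rise (0.31, adjusted p = 0.00159). The interaction for Rc3h1 was −0.91 ± 0.08 (adjusted p = 7.50e-07).

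Rc3h2 encodes the second Roquin. It (ENSMUSG00000075376) lies at chr2:37370069-37422903 on the minus strand. Rc3h2 measured 2.88, 2.75 and 2.95 FPKM in untreated macrophages and 5.87, 5.49 and 5.53 FPKM after LPS, a 1.97-fold rise (log2 difference 0.78 ± 0.06, adjusted p = 3.35e-07). In osteoclasts its 2.35, 2.22 and 2.45 FPKM without LPS overlapped the 2.13, 1.88 and 2.40 FPKM with it, and the difference of −0.09 did not pass the test (adjusted p = 0.365). The interaction was −0.87 ± 0.09 (adjusted p = 5.38e-06). Rc3h1 held 71.3% to 80.1% of the Roquin pair's summed FPKM on average in the 4 groups. Levels of Rc3h2 against other genes depend on the length used. Whole reads were recovered with its merged exon length of 19624 bases (11308 for Rc3h1). The coding transcript taken for the 3′ UTR search has 8799 bases (11006 for Rc3h1). A shorter length would give Rc3h2 a higher level and Rc3h1 a smaller share.

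Elavl1, which encodes HuR, is the member known for stabilising mRNAs. It (ENSMUSG00000040028) lies at chr8:4285382-4325413 on the minus strand. It measured 5.84, 5.75 and 6.08 FPKM in untreated macrophages and 9.24, 9.35 and 9.65 FPKM after LPS, a 1.598-fold rise (log2 difference 0.60 ± 0.04, adjusted p = 7.06e-08). In osteoclasts it measured 7.17, 6.97 and 7.11 FPKM and, after LPS, 7.90, 7.52 and 7.36 FPKM, and that difference of 0.09 did not pass (adjusted p = 0.172). The interaction was −0.51 ± 0.06 (adjusted p = 1.34e-05). These calls of Elavl1 depend on the scaling: rescaling to TPM put the median of all genes at −0.55 in macrophages, and its LPS effect there was then 0.03 (adjusted p = 0.603) and its interaction 0.00059 (adjusted p = 0.994). Relative to that median, its LPS effect in macrophages under the rescaling was 0.58.

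**Figure D3:**
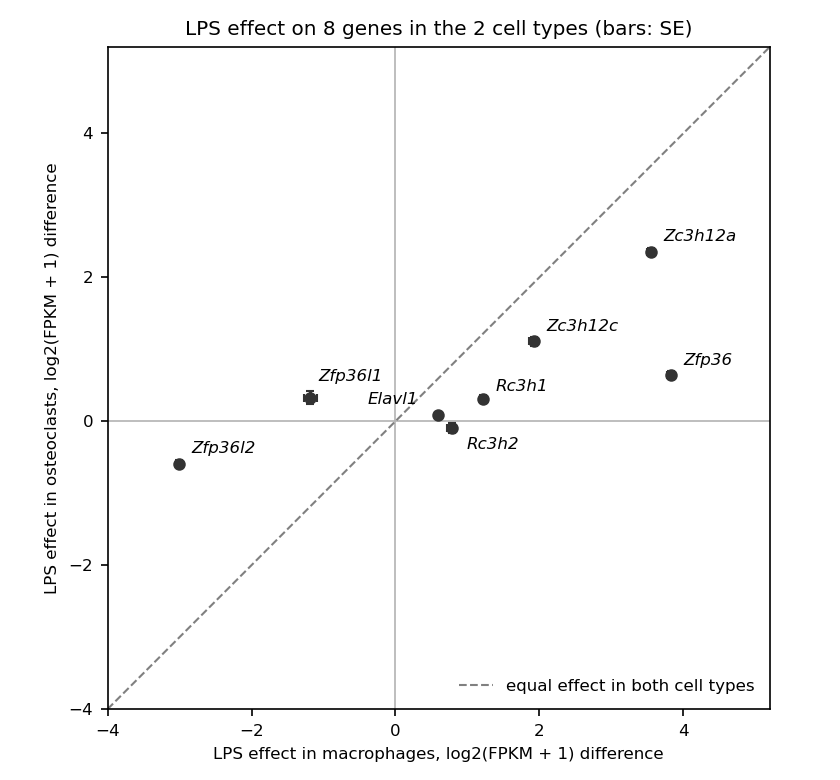
LPS effect on each of the 8 genes in osteoclasts (vertical) against that in macrophages (horizontal), both as log2(FPKM + 1) differences with SE bars from limma. On the dashed line the effects would be equal; the 6 genes that rose in macrophages lie below it and Zfp36l1 and Zfp36l2, which fell there, lie above it.

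The LPS effects differed between the cell types for all 8 genes in limma's interaction test, which called 56.6% of all tested genes (47.0% of them above 0, 82.0% under TPM and 59.9% under quantile normalization). For Elavl1 the direction turned under TPM, as given above. TPM, which put the median interaction of all genes at 0.51, also reduced the interactions of Zc3h12a (−0.60), Zc3h12c (−0.27), Rc3h1 (−0.40) and Rc3h2 (−0.48), which kept direction and call. Quantile normalization gave −0.78 for Zc3h12a. For the 6 genes that rose in macrophages the osteoclast effect was lower, and for the 2 that fell it was higher. The interaction subtracts the macrophage effect, so genes sorted by that effect tend towards these signs. Over all genes, not sorted in this way, the interaction was called below 0 for 30.0% and above 0 for 26.6%. These shares are therefore not a matching baseline. The difference was at least 1 on the log2 scale for 4 of the 8 (Zfp36, Zfp36l1, Zfp36l2 and Zc3h12a) and for 15.6% of all genes. Zc3h12a left that count under TPM and quantile normalization, and Rc3h2 joined it with a pseudocount of 0.1 (−1.08) and with voom (−1.11).

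Without LPS, limma called 6 of the 8 between the cell types and 77.8% of all tested genes (38.8% with the higher level in osteoclasts, 39.0% with the lower). Elavl1 was higher in osteoclasts (log2 difference 0.23, adjusted p = 2.63e-04), and Zfp36l1, Zfp36l2, Zc3h12a (−0.49, adjusted p = 1.87e-06), Zc3h12c (−0.25, adjusted p = 0.00345) and Rc3h2 (−0.21, adjusted p = 0.0103) were lower. Rc3h1 differed by −0.07 (adjusted p = 0.243). Zfp36l1 alone differed by at least 1, against 27.7% of all genes, but Zfp36l2, at −0.98, stood at −1.41 under TPM and −1.36 under quantile normalization. Among the 8 only the Zfp36 libraries overlapped, and 81.4% of all genes had none that did. TPM, under which the median of all genes was −0.38 and the share of higher calls 29.9% against 49.9%, put Elavl1 at −0.14 (adjusted p = 0.0149) and called Zfp36 (−0.40, adjusted p = 4.94e-05) and Rc3h1 (−0.48, adjusted p = 1.14e-05) as lower in osteoclasts. Relative to that median Zfp36 was at −0.02 and Rc3h1 at −0.10. TPM also gave larger differences for Zc3h12a (−0.94), Zc3h12c (−0.68) and Rc3h2 (−0.63), and quantile normalization ended the call of Rc3h2 (−0.08, adjusted p = 0.210).

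After LPS all 8 differed between the cell types, where limma called 83.9% of all genes (40.9% higher and 43.0% lower in osteoclasts), and the libraries did not overlap for any of them, as for 83.6% of all genes. Of the 8, 7 were lower in osteoclasts, with log2 differences from −3.18 for Zfp36 to −0.28 for Elavl1 (−0.14 under TPM and −0.16 under quantile normalization), and Zfp36l2 was higher by 1.44 (adjusted p = 2.04e-11). Zc3h12a (−1.68), Zfp36l1 (−1.41), Rc3h2 (−1.08), Zc3h12c (−1.06) and Rc3h1 (−0.98) lay between. Differences of at least 1 were called in 6 of the 8, all but Rc3h1 and Elavl1, and in 36.5% of all genes. Zc3h12c fell below 1 under TPM (−0.95) and quantile normalization (−0.82), and Rc3h1 passed it with a pseudocount of 0.1 (−1.05) and with voom (−1.06). The 4 comparisons of 2 groups share libraries, so their values for a gene are not independent of each other. The 7 decay factors without HuR summed to 184 ± 3.71 FPKM in untreated macrophages and 498 ± 3.38 after LPS, and to 101 ± 3.09 and 129.9 ± 2.34 in osteoclasts. The rise in macrophages was 2.71-fold on FPKM and 1.73-fold on TPM, and the rises of the Regnase and Roquin pairs there were 9.67-fold and 2.36-fold on FPKM and 6.17-fold and 1.51-fold on TPM. In bulk samples, fewer cells of a type and less RNA per cell cannot be told apart.

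Macrophage markers in the osteoclast cultures were low for some genes and not for others. Relative to LPS-treated macrophages, LPS-treated osteoclasts held 0.814% of Mrc1, 0.679% of Cx3cr1, 0.931% of Fcgr1, 7.01% of Mertk, 9.28% of Adgre1, 17.6% of Itgam, 69.7% of Csf1r and 175% of Cd68. By the same measure they held 10.8% of Zfp36 and 30.5% of Zc3h12a. Adgre1, which encodes the macrophage surface protein F4/80, stood at 73.1, 42.5 and 70.9 FPKM in the 3 LPS-treated osteoclast libraries and 31.2 to 37.0 in the untreated ones. The library with the lowest Adgre1 had 34.7 FPKM of Zfp36 and 32.6 FPKM of Zc3h12a, in both cases between the values of the other two, as for Zfp36l1 and Elavl1. Zc3h12c (9.27 FPKM), Rc3h1 (8.32) and Rc3h2 (1.88) were lowest in that library and Zfp36l2 (40.9) was highest. Its Tnf, a single target transcript picked outside the naming rule given below, was 107 FPKM, against 159 in each of the others. The remaining target transcripts are not set beside Adgre1 here. The part of remaining macrophages in the osteoclast responses was not tested.

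Genes of the decay machinery were taken by complex. Beside the counts here and in the lists below, 36.8% of all tested genes were called higher and 33.1% lower with LPS in macrophages. In osteoclasts these shares were 11.1% and 6.59%. TPM put the median LPS effect of all genes in macrophages at −0.55, which adds falls to every list. Of 17 genes for deadenylation (CCR4-NOT, PAN2-PAN3 and the TOB and BTG adaptors), 6 were higher and 6 lower with LPS in macrophages, and 2 higher and 2 lower in osteoclasts, with median log2 differences of −0.06 in both. Under TPM the macrophage counts were 2 higher and 13 lower, and the median stood −0.11 from that of all genes. The osteoclast counts were 2 higher and 5 lower under TPM and also under quantile normalization. In macrophages Cnot7, a catalytic deadenylase, went from 6.05 ± 0.242 to 10.9 ± 0.319 FPKM and Cnot4 from 2.37 ± 0.0956 to 4.29 ± 0.209. Tob2 fell from 8.04 ± 0.262 to 4.59 ± 0.138 FPKM and Cnot6l, another deadenylase, from 7.30 ± 0.278 to 4.55 ± 0.290. In osteoclasts Btg1 rose from 13.3 ± 1.09 to 19.9 ± 1.14 FPKM and Btg2 from 0.252 ± 0.0975 to 0.700 ± 0.116, while Tob1 fell from 6.82 ± 0.695 to 4.46 ± 0.168 and Cnot6l from 9.59 ± 0.200 to 8.09 ± 0.372.

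Of 12 decapping genes, 7 rose and 3 fell in macrophages, with a median of 0.31, although TPM gave 4 higher and 7 lower. Dcp2, the decapping enzyme, rose from 7.74 ± 0.425 to 45.7 ± 1.22 FPKM in macrophages and from 8.50 ± 0.484 to 12.7 ± 1.69 in osteoclasts. Its activator Dcp1a rose from 4.05 ± 0.0935 to 12.6 ± 0.348 FPKM in macrophages and from 2.98 ± 0.119 to 3.64 ± 0.393 in osteoclasts. Dcp1b (1.36 ± 0.109 to 0.848 ± 0.101 FPKM) and the decapping enhancer Edc3 (5.24 ± 0.267 to 4.06 ± 0.201 FPKM) fell in macrophages. In osteoclasts 2 of 12 rose and 2 fell, the latter being Eif4enif1 (7.44 ± 0.636 to 6.19 ± 0.277 FPKM) and the helicase Ddx6 (27.4 ± 0.601 to 25.0 ± 0.992 FPKM).

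Of 12 tested genes of the exosome and its cofactors, 2 rose and 5 fell in macrophages, with a median of −0.13, and under TPM all 12 fell. TPM put the median of all genes there at −0.55 and that of the 12 at −0.75, which is −0.20 from it. Exosc7 fell from 1.62 ± 0.107 to 0.693 ± 0.0805 FPKM and Exosc1 from 10.3 ± 0.573 to 6.67 ± 0.530. Skiv2l (log2 difference 0.20) and Exosc10 (0.18) rose, but fell under TPM (−0.43 and −0.45, both above the median of all genes under TPM). In osteoclasts limma called none of the 12, beside 17.7% of all tested genes, and none had an unadjusted p under 0.05. Voom on recovered reads also called none, and without LPS-treated osteoclast library 2, limma called 1 of them higher. Exosc6, the thirteenth on the list, was at 0 in every library and shares exon sequence with Aars on the same strand.

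Of 17 other RNA-binding regulators listed and 12 tested, 7 rose and 3 fell in macrophages (3 and 8 under TPM, 4 and 5 under quantile normalization). In osteoclasts 3 rose and 1 fell (3 and 3 under quantile normalization). Without Arid5a, which passed the filter only through its LPS-treated macrophage libraries, so that its rise there was fixed, 6 of 11 rose in macrophages and 2 in osteoclasts. N4bp1, a ribonuclease that restrains cytokine responses, rose from 3.95 ± 0.226 to 52.6 ± 0.1001 FPKM in macrophages and from 4.44 ± 0.0975 to 7.13 ± 0.554 in osteoclasts. Arid5a, which stabilises Il6 mRNA and opposes Regnase-1, went from 0.612 ± 0.0514 to 15.7 ± 0.659 FPKM in macrophages and from 0.182 ± 0.0275 to 0.515 ± 0.160 in osteoclasts. Zc3hav1, an antiviral RNA-binding protein, rose from 16.8 ± 0.244 to 89.5 ± 1.47 FPKM in macrophages and from 19.6 ± 0.324 to 26.3 ± 1.03 in osteoclasts. Zc3h12d, a further Regnase, fell in macrophages from 6.25 ± 0.298 to 3.29 ± 0.486 FPKM. Tia1, which silences translation, fell in both cell types (log2 differences −0.35 and −0.31).

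Of 12 upstream regulators of these proteins, 10 rose and none fell in macrophages, with a median of 0.93 (6 rose and 3 fell under TPM, 9 and 3 under quantile normalization), and 4 rose and none fell in osteoclasts, with a median of 0.09 (3 and 1 under quantile normalization). The interaction was called below 0 for 10 and above 0 for none (7 and 2 under TPM, 8 and 3 under quantile normalization). Dusp1, a phosphatase that switches off p38, rose from 8.13 ± 0.554 to 184 ± 22.6 FPKM in macrophages, and in osteoclasts stood at 5.17 ± 0.223 and 4.63 ± 0.738 (log2 difference −0.14, adjusted p = 0.389). Its interaction was −4.47 (adjusted p = 2.55e-10). Malt1, the protease, rose from 2.26 ± 0.1002 to 47.5 ± 2.49 FPKM in macrophages and from 4.65 ± 0.126 to 14.5 ± 2.25 in osteoclasts. Mapkapk2, which encodes MK2, rose from 75.2 ± 1.90 to 519 ± 22.8 FPKM in macrophages and from 87.4 ± 1.99 to 133 ± 8.28 in osteoclasts. In osteoclasts Bcl10, the partner of MALT1, rose by 0.19 and Map2k3, a kinase of p38, by 0.25 on the log2 scale. The smallest rises called in macrophages, of Map2k3 (0.46) and Ppp2r1a (0.48), were falls under TPM (−0.18 and −0.16) and under quantile normalization (−0.30 and −0.28). The median of all genes was −0.55 under TPM, below both genes, and −0.14 under quantile normalization, above both. Dusp1 shares exon sequence with Ergic1 on the opposite strand, which reached at most 25.1 FPKM.

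Of 18 known target transcripts of these factors, 14 passed the filter on low values. Of those, 6 (Cxcl1, Il10, Il12b, Il1b, Il6 and Lcn2) passed it only with the help of LPS-treated libraries, and 5 of these were under 1 FPKM in all untreated libraries. The filter thus favoured a rise with LPS in these 6, though not in each cell type, and their calls are no support. The other 8 (Ccl3, Cxcl2, Ier3, Nfkbid, Nfkbiz, Ptgs2, Rel and Tnf) had already passed it in untreated libraries, and all 8 rose in both cell types. Of all tested genes, 36.8% were called higher in macrophages and 11.1% in osteoclasts. Over the 14, as a description, the median log2 difference was 5.77 in macrophages and 3.03 in osteoclasts. The size in osteoclasts depends on what is added to low values: it was 5.19 with a pseudocount of 0.1 (6.43 in macrophages), 5.87 with voom (6.54) and 3.94 under TPM (5.61). Lcn2, named after its value was seen, was not called in osteoclasts on log2(FPKM + 1) or under quantile normalization, and was called higher in the other 3. Il1b reached 738 ± 18.7 FPKM in LPS-treated macrophages and 4.14 ± 1.21 in LPS-treated osteoclasts. Il12b, at 0 in all 6 untreated libraries, reached 297 ± 14.5 FPKM in macrophages and 10.997 ± 3.08 in osteoclasts. The chemokine Ccl3 went from 14.1 ± 1.83 to 3568 ± 105 FPKM in macrophages and from 2.30 ± 0.101 to 172 ± 51.1 in osteoclasts. Cxcl2, another chemokine, rose from 3.42 ± 0.326 to 431 ± 35.4 and from 0.253 ± 0.109 to 67.7 ± 14.9 FPKM. Among the smallest rises were Nfkbid (log2 differences 1.31 and 0.67), Ier3 (2.50 and 0.66) and, in osteoclasts, Rel (0.57). For the 8 that had passed in untreated libraries, the interaction was called below 0 for 8 on log2(FPKM + 1), beside the 30.0% of all genes given above, for 5 with voom on recovered reads, which adds less to low values, for 6 with a pseudocount of 0.1, for 7 under quantile normalization and for 4 under TPM, with 1 above 0. Cxcl2 turned, at −0.86 on log2(FPKM + 1) and 1.11 (adjusted p = 0.244) with voom.

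**Figure D4:**
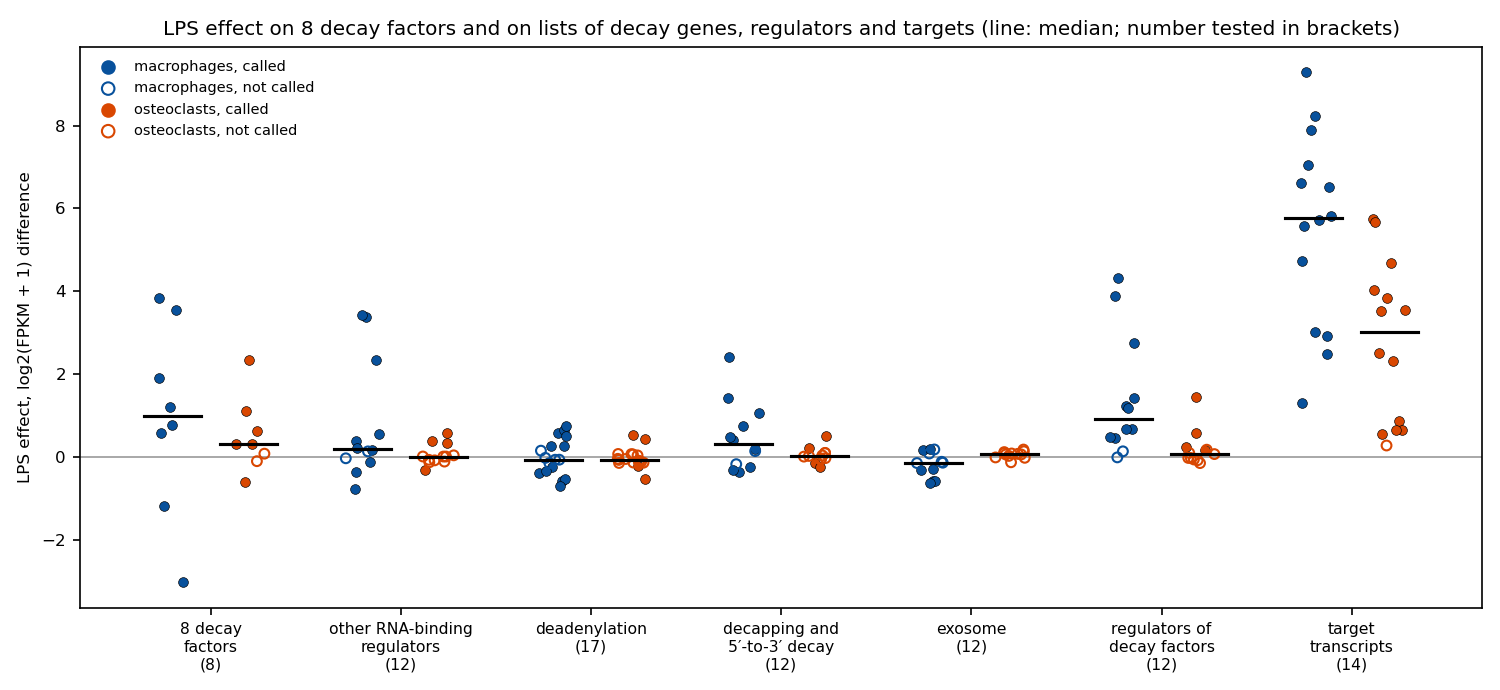
LPS effect as a log2(FPKM + 1) difference for each tested gene of 7 lists, in macrophages (blue) and osteoclasts (orange); filled points passed an adjusted p of 0.05, lines are list medians, and the number tested is in brackets. The target transcripts have the highest medians, 5.77 and 3.03 (6.54 and 5.87 with voom, and 6 of the 14 passed the filter only with LPS-treated libraries). The 12 exosome genes hold no filled point in osteoclasts, where 17.7% of all tested genes were called.

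The genes whose levels followed each member most closely were sought among 6430 genes averaging 5 FPKM or more, by Pearson's r of log2(FPKM + 1) over the 12 libraries, which fall into 4 groups. Zfp36 was most like Dirc2, Il1a and Stk40 (r = 0.998 each). Zc3h12a was most like Rsad2, Cxcl10 and Ifit1 (0.998 each), and Zc3h12c most like Gbp2 (0.998), Ifit2 and Cmpk2 (0.997). Rc3h1 was most like Sdc4 (0.996), Il1a and Il1b (0.995), and Rc3h2 most like Trip12 (0.996), Tpp2 (0.993) and Apaf1 (0.992). Zfp36l2 was most like Ddi2 (0.997), Egln1 and Fmnl3 (0.991), Zfp36l1 most like Sc5d (0.993), Hnrnpu and Cotl1 (0.991), and Elavl1 most like Ndufb1-ps (0.993), Tpm4 and Nfkbia (0.992). Among the 8 themselves, the closest pairs were Zc3h12a with Zc3h12c (r = 0.994) and Zfp36 with Rc3h1 (0.992), and the most opposed was Zfp36l2 with Elavl1 (−0.989). By Spearman's rank correlation none of these nearest genes was shared for 6 of the 8, and 1 of 3 for Rc3h2 and for Elavl1. With a pseudocount of 0.1, 2 of 3 were shared for Zfp36, Zfp36l1, Zfp36l2, Rc3h2 and Elavl1, 1 of 3 for Zc3h12a and for Rc3h1, and none for Zc3h12c.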

How the data were processed

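RNA was sequenced from 12 libraries in 4 groups of 3. The authors deposited 1 table of FPKM values. Per the submitters' processing notes, fastp, STAR, featureCounts and DESeq2 were used with build mm10; their order, settings and versions are not given in the sources used here. Per the labels' protocols the library kit was NEBNext Ultra RNA, which does not mark strand, so reads of overlapping antisense genes cannot be told apart.

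With GENCODE M21 exon lengths, all 25854 genes above 0 came out as whole reads (tolerance 0.02; for 96.8% at the M21 length, for the rest at a length inferred from the values). This gave 15652005 to 20281769 assigned reads per library, and denominators within 0.0018% of a multiple of median-of-ratios size factors; the scaling is therefore inferred, not stated. The M21 annotation matched 54495 of the 54532 identifiers.

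Limma 3.58.1 (R 4.3.3) was fitted to log2(FPKM + 1) of all 12 libraries with 4 group means and a mean-variance trend, for genes with at least 1 FPKM in 3 libraries. Benjamini-Hochberg adjustment ran over all 11335 genes within each of 5 contrasts, at 0.05. Folds are ratios of mean FPKM; differences on the log2(FPKM + 1) scale understate changes of low genes. Shares were tested with exact permutation in scipy 1.17.1. The alternatives comprised TPM, 0.1 as pseudocount, testing unfiltered genes or those averaging 5 FPKM or more, quantile normalization, voom on recovered reads, fitting only the groups compared, no variance trend, library weights, the replicate block and leaving out each library. Replicate numbers were checked for pairing: 1 of 18 same-number pairs had a correlation of deviations over 0.1 (−0.07 to 0.10), so they were not used as pairs.

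The 8 genes and the lists were chosen with earlier results of these data known. Beyond the 8, each list names, for each LPS effect, the 2 highest and 2 lowest called genes, and for each of the 8 the 3 genes with the highest Pearson correlation among those with a mean of at least 5 FPKM. Tnf, Lcn2 and Exosc6 are also described, outside this rule.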

Additional observations from a re-analysis of the deposited data

Results flagged for a closer look

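The LPS effect differed between osteoclasts and macrophages for each of the 8 genes, and limma's interaction term tested that difference (adjusted over 11335 genes; 56.6% of them were called). The difference, as the osteoclast effect minus the macrophage effect on the log2(FPKM + 1) scale, was −3.19 for Zfp36, 1.51 for Zfp36l1 and 2.42 for Zfp36l2. It was −1.19 for Zc3h12a, −0.81 for Zc3h12c, −0.91 for Rc3h1, −0.87 for Rc3h2 and −0.51 for Elavl1. For Zfp36l1 the separate effects had opposite signs, −1.18 in macrophages and 0.33 in osteoclasts, though the latter lost its call under several alternatives. For Zfp36l2 both effects were falls, of −3.01 and −0.59. The value of Elavl1 was 0.00059 under TPM (adjusted p = 0.994), where the median of all genes was 0.51. Under TPM the values of Zc3h12a, Zc3h12c, Rc3h1 and Rc3h2 were −0.60, −0.27, −0.40 and −0.48, still called below 0.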

How the results depend on the processing

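Of 875 comparisons of a value of the 8 genes with an alternative, 858 kept their side of the threshold and, where called, their direction, 13 lost the call, 1 gained one and 3 turned. All 3 that turned did so under TPM: Zfp36 without LPS, not called at 0.01, was called at −0.40 (−0.02 relative to the median of all genes), and Elavl1 gave −0.14 for osteoclasts minus macrophages without LPS (0.23 relative to the median of all genes) and 0.00059 for the interaction (−0.51 relative to it). TPM divides out the larger FPKM sums of some libraries and so shifts the median of all genes. The shift is not equal for all, since 1 is still added after the rescaling. For osteoclasts minus macrophages without LPS, that median went from 0 to −0.38 and Zfp36l1 from −2.92 to −3.63. Rc3h2 lost its call between the untreated cell types under quantile normalization (−0.08, adjusted p = 0.210) and could not be tested at a mean of at least 5 FPKM. With the replicate block, the LPS effect on Zfp36l1 in osteoclasts stayed at 0.33 with an adjusted p of 0.0515, and no other call among the 8 changed. Over all alternatives that effect ranged from 0.29 to 0.46. At a mean of at least 5 FPKM fewer genes were tested, and 4851 (of 7921 without that filter), 5427 (of 8822), 5694 (of 9509) and 4018 (of 6413) were called for LPS in macrophages, the cell types without and with LPS, and the interaction. Leaving out 1 library gave 7500 to 8012, 8495 to 8874, 9307 to 9488 and 6049 to 6345 in that order, and 1432 to 2031 (2008 with all) for LPS in osteoclasts. Shares from summed reads instead of FPKM were, in untreated and LPS-treated macrophages and then osteoclasts, 40.8%, 67.3%, 36.5% and 57.9% for Zc3h12a and 58.9%, 64.7%, 62.3% and 69.8% for Rc3h1, since FPKM divides reads by the merged exon length, which is larger for Zc3h12c and Rc3h2. Depth limits Zfp36l1 most, with 99 reads in its lowest library.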
